A study of Mus musculus with 4 samples.

Results

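Ion channel genes were examined in RNA-seq of sorted mouse olfactory cells with and without lamin B1. The genes were those whose symbol begins with Kcn (potassium channels), Scn followed by a number and the letter a or b (voltage-gated sodium channels), Cacna, Cacnb or Cacng (voltage-gated calcium channels) or Hcn (hyperpolarisation-activated channels). Of 23337 gene symbols in the count files, 139 matched. Of these, 98 exceeded 1 CPM, a count scaled to library size, in at least 2 samples and were tested, and 41 did not reach that level. The 139 genes were divided into 16 families by protein type, and the families are described separately.

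The cells carried Tomato, a red fluorescent reporter switched on by K5Cre, a Cre recombinase active in horizontal basal cells, the reserve stem cells of the olfactory epithelium. All 4 mice were of mixed background, carried K5Cre and the reporter, and had been injected with 50 mg/kg methimazole, which destroys the epithelium, with 4 weeks of recovery. Control mice (n = 2) gave Lmnb1+/- sorted cells and mutant mice (n = 2) gave Lmnb1-/- sorted cells, so the controls also carried 1 inactive allele. Each sample was 1 mouse, and animal ages were not given in the labels. Mutant and control of an experimental group had the same parents, age, sex, treatment, preparation and sequencing, whereas the 2 experimental groups differed in treatment, parents, age and sex. Control 1 and mutant 1 form experimental group 1, and control 2 and mutant 2 form experimental group 2. The reporter marks the stem cells together with all their progeny, so each sample mixed neurons, progenitors and supporting cells. Their proportions in the sorted samples were not given. By morphology in tissue, the study found similar shares of these cell types in reporter-positive clones of mutants and controls. It also noted that a small minority of reporter-positive cells retained lamin B1. Lamin B1 is a protein of the nuclear lamina, and the comparison asks which transcripts differ in regenerated cells that lack it.

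An olfactory sensory neuron turns an odour into a depolarisation in its cilia, and voltage-gated sodium, calcium and potassium channels of the soma and axon turn that depolarisation into spikes and transmitter release. Sodium channels carry the upstroke of the spike, delayed rectifier potassium channels end it, calcium channels admit calcium at the nerve terminal, and auxiliary subunits set the trafficking and gating of the pores. Inwardly rectifying and K2P potassium channels hold the resting potential of neurons and of supporting cells alike.

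The 4 libraries held 14833396 to 23704638 counts assigned to genes, and channel genes took 0.264% to 0.569% of them. Lmnb1 itself had 477 and 395 counts in controls 1 and 2 and 326 and 149 counts in mutants 1 and 2, and the difference did not pass the test (log2 fold change -0.72, SE 0.31, edgeR adjusted p = 0.195). Cre removes part of the gene, whereas the count covers all of it, so the count is not a direct measure of the deletion. The study reported depleted Lmnb1 transcript in sorted mutant cells by PCR of exons outside the deleted one, and loss of lamin B1 staining in most reporter-positive cells. The gap between that PCR and these counts was not tested. Mutant 1 stood apart from the other libraries. In it, 39.4% of uniquely aligned reads lay outside genes, against 22.1% to 24.9% in the other 3, and 1603 gene symbols had no count, against 5173 to 6053.

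Mature olfactory neuron markers were lower in the mutants. All 7 of the markers Omp, Cnga2, Adcy3, Gnal, Ano2, Rtp1 and Stoml3 passed the test, with a median log2 fold change of -1.35, and none was at 0 in any library. Their summed level was 16342, 7077, 8969 and 2053 CPM in controls 1 and 2 and mutants 1 and 2, in that order. Of the 5 immature neuron markers, only Dcx passed (log2 fold change -0.63, SE 0.18, edgeR adjusted p = 0.0148). In bulk RNA, fewer cells of a type and less RNA per cell cannot be told apart, and the part of the neuron markers in the channel results was not tested.

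Of the 98 tested channel genes, 23 were lower in the mutants and 0 were higher at an edgeR adjusted p under 0.05 (likelihood-ratio test, model with genotype and experimental group). Over all 15438 tested genes, 4.30% were lower and 1.28% were higher. These shares also stand beside each count by family below. At an unadjusted p under 0.05, 32 channel genes were lower, against 9.62% of all tested genes, and 5 were higher, against 6.32% of all tested genes, and the quasi-likelihood test and DESeq2, which also called 0 higher, gave 4 and 5 higher at that level. The median log2 fold change was -0.41 for the 98 channel genes and -0.01 for all tested genes. In both experimental groups, all 23 called genes were below the control of their own group. Their log2 ratios were -0.29 to -1.09 in group 1 and -0.84 to -2.58 in group 2. The call selects for low mutants in these same samples, so this describes the 23 and does not test them. In all 23, the ratio was further from 0 in group 2 than in group 1. The group 2 ratio was the lower one in 72 of the 98 tested channel genes and in 7769 of all 15438 tested genes. With a uniform background subtracted from mutant 1, 23 of 96 tested channel genes were lower. Without mutant 1, a model with experimental group could not be fitted, and genotype alone called 0 channel genes even with all 4 samples. Calls without mutant 1 could therefore not be assessed.

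**Figure D1:**
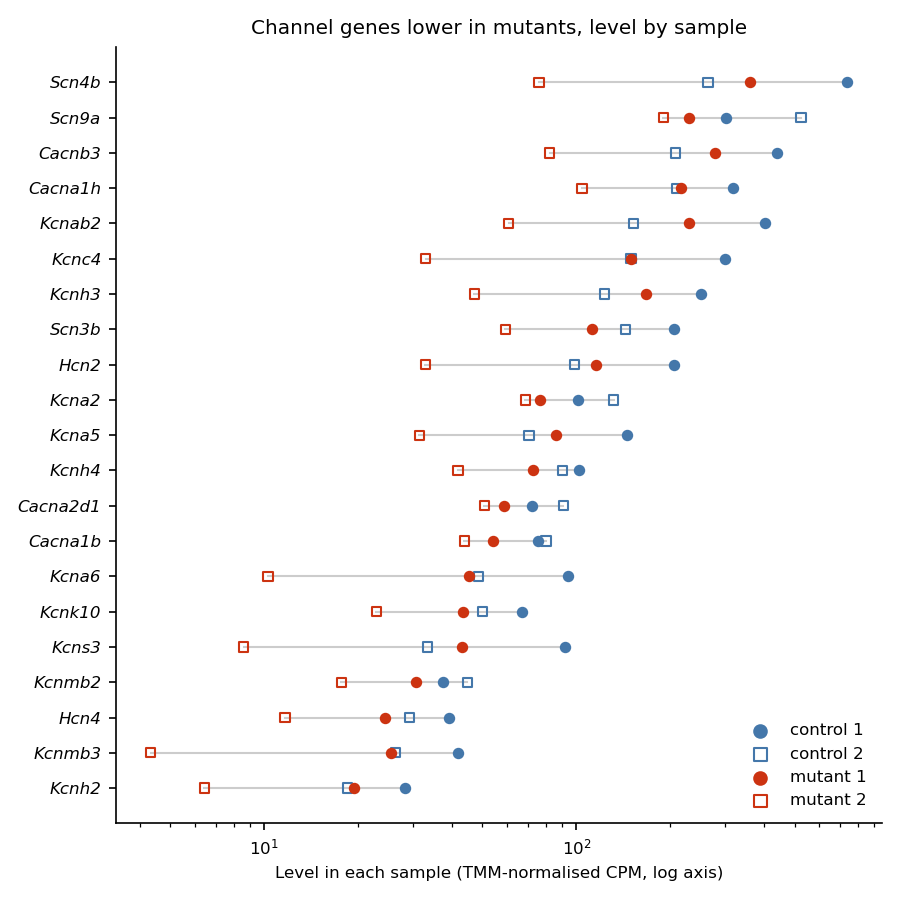
Level of 21 of the 23 channel genes past the threshold for genotype, in TMM-normalised CPM on a log axis, 1 point per sample (blue, controls; red, mutants; filled circles, experimental group 1; open squares, experimental group 2). Mutant 2 was the lowest sample for each of the 21 genes, and both controls lay above both mutants for 11 of them. The genes were selected for low mutants in these same samples, so both counts are descriptive.

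The controls differed from each other as well, so mutant levels are best read against the control of their own group. Both controls lay above both mutants in 29 of the 98 tested channel genes, against 13.3% of all tested genes. They did so in 12 of the 23 called genes, which were selected for low mutants and so have no like share. In the other 11 called genes, mutant 1 was above control 2 but below control 1. No tested channel gene entered the test through the controls alone, 81 of the 98 exceeded 1 CPM in all 4 samples, 6 did so only in the pair of experimental group 1, and 1 did so only in the mutants (Kcns1, named after its values were seen). Just inside that rule were Kcnk13, Kcne1l and Kcnh5, with a second highest CPM of 1.08, 1.10 and 1.17, and just outside it were Kcnv2, Kcne4 and Cacna2d4, with 0.993, 0.948 and 0.886.

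Most called genes were among the more abundant channel genes. Per kb of exon, 9 of the 10 highest channel genes, 14 of the highest 20 and 22 of the highest 40 were called. The like shares over all tested genes ranked per kb were not counted. Among the 10 the exception was Kcnj5, and the highest 20 further included Kcnk1, Kcnj2, Kcnj13 and Kcnj15, which did not pass the test. Of 38 channel genes with a mean above 20 CPM, a level chosen after the data were seen, 22 were lower, against 6.90% of all tested genes above the same level. Among the 60 tested channel genes at or below 20 CPM, 1 was lower. Over all tested genes, 597 of the 664 called lower were likewise above 20 CPM, so scarce calls at low level were not particular to channel genes. The median log2 fold change was -0.17 for the 60 and -0.79 for the 38. The SE had a median of 0.67 in the 60 and 0.22 in the 38.

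**Figure D2:**
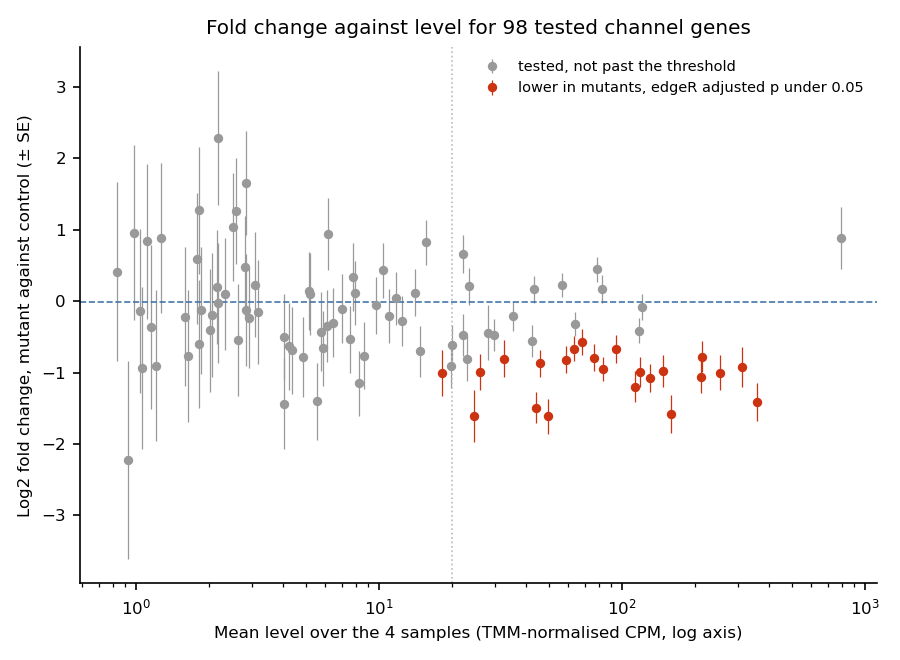
Log2 fold change of mutant against control (edgeR, ± SE) plotted against the mean level over the 4 samples in TMM-normalised CPM on a log axis, for the 98 tested channel genes (red, lower at an adjusted p under 0.05; grey, not past the threshold). The dashed line is the median of all tested genes, -0.01, and the dotted line marks 20 CPM, above which 22 of 38 genes were called. The point at far right is Kcnq1ot1.

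The called genes lay on 11 chromosomes, some of them beside other channel genes. Scn4b (chromosome 9, 45138395 to 45154152, mm10) was called, while Scn2b, 8.3 kb away, was not (1.27 on the log2 scale). Kcna5 (chromosome 6, 126532551 to 126535412) and Kcna6 (chromosome 6, 126708329 to 126740674) were called, while Kcna1 between them was not (0.34). Scn9a (chromosome 2, 66480080 to 66634962) was called (log2 fold change -0.93), while the flanking Scn7a had a larger estimate without passing (-1.40) and Scn1a was below the level for testing.

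Upstream sequence is shown for the called genes of smallest p whose RefSeq start had 250 preceding bases outside every annotated exon, so that letters behind genes that moved together can be read side by side. A RefSeq window (GRCm38.p6) was found for 18 of the 23 called genes, and 11 of these had such exon-free bases. Capitals mark matches to CCCNNGGG on either strand, the core of the site of the Ebf or Olf1 factors, which are known for driving genes of mature olfactory neurons. The sequences run 5′ to 3′ on the strand of the gene. Kcns3 and Hcn2 are read from a start that GENCODE also holds, Kcna5 from a start 143 bases from the nearest GENCODE start, and Kcnab2 from a start 15 bases from one.
Kcns3, chr12:11150374-11150623, minus strand: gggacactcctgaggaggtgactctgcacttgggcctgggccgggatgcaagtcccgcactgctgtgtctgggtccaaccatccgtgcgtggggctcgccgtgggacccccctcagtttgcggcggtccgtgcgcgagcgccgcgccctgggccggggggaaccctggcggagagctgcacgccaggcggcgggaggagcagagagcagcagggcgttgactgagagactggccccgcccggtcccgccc
Hcn2, chr10:79716384-79716633, plus strand: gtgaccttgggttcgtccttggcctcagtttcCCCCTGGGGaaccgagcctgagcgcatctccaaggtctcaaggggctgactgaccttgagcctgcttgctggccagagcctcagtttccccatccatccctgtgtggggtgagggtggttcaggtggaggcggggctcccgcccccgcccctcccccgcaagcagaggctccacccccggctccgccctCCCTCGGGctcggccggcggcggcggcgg
Kcna5, chr6:126535556-126535805, minus strand: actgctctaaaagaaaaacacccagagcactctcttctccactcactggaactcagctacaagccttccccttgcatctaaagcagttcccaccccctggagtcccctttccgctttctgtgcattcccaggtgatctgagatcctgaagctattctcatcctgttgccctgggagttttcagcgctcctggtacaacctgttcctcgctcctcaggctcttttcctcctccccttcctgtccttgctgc
Kcnab2, chr4:152448856-152449105, minus strand: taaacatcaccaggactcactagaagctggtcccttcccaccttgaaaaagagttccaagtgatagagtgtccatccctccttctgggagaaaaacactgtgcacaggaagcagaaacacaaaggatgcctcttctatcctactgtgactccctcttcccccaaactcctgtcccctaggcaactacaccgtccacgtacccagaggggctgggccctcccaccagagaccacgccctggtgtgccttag

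Of these 4 windows, only that of Hcn2 held the motif, at 3 positions that begin 218, 217 and 29 bases before the start, the first and second of them overlapping. Over the 250 bases before the RefSeq start, CCCNNGGG was found in 4 of the 18 called genes with a window (Kcnc4, Hcn2, Kcnh4 and Cacna1b), in 12 of 52 tested genes that were not called, and in 13.4% of all 27025 genes with a window, a gene counting once whatever its number of windows. These shares include windows that overlap annotated exons. The window of Kcnc4 lay wholly in such exons and that of Kcnh4 for 164 of its 250 bases, while those of Hcn2 and Cacna1b were exon-free. TCAGCACC, the left part of the REST or RE1 element through which neuronal genes are silenced elsewhere, was found in 0 of the 18, in 1 of the 52 and in 1.49% of all genes with a window. The GC content of the 4 printed windows was 72.8%, 70.4%, 53.2% and 54.0%, in the order shown.

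Among the pore-forming sodium channels, the 6 tested genes had a median log2 fold change of -0.92. Scn9a encodes Nav1.7, the sodium channel known for spike conduction in olfactory and nociceptive axons, and at 31.0 CPM per kb on average it was the highest of the family. It had 301 and 524 CPM in controls 1 and 2 and 229 and 190.1 CPM in mutants 1 and 2. Both mutants were below both controls, and control 2 was the highest sample. Scn9a decreased by 0.93 log2 units (SE 0.28, adjusted p = 0.0282 by edgeR). Across methods the call varied, and over 7 alternatives that kept experimental group in the model, its adjusted p lay between 0.0145 and 0.385 and was above 0.05 in 3, the quasi-likelihood test and DESeq2 included.

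Scn8a (Nav1.6, a channel of axon initial segments) was just outside the threshold (log2 fold change -0.91, SE 0.31, edgeR adjusted p = 0.0592), with both mutants below both controls. Scn7a, which encodes an atypical channel gated by sodium rather than voltage, also had its mutants lowest (log2 fold change -1.40, SE 0.54, edgeR adjusted p = 0.123).

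Scn3a (Nav1.3), a channel of immature neurons in other tissues, had ratios of opposite sign in the experimental groups. It had 16.1 and 53.0 CPM in controls 1 and 2 and 24.6 and 18.8 CPM in mutants 1 and 2. Mutant 1 was above and mutant 2 below the control of its own group, and the genotype difference did not pass (log2 fold change -0.44, SE 0.38, edgeR adjusted p = 0.691).

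The sodium channel beta subunits, which are membrane proteins with an immunoglobulin fold that modulate the pore, divided within the family. Scn4b was, after Cacnb3, the most abundant of the 139 channel genes per kb of exon. It had 737 and 264 CPM in controls 1 and 2 and 359 and 76.0 CPM in mutants 1 and 2. The controls differed from each other by more than control 1 did from mutant 1, and both mutants were below their own controls. Scn4b decreased by 1.41 log2 units (SE 0.26, adjusted p = 3.40e-05 by edgeR). Scn3b had 205 and 144 CPM in controls 1 and 2 and 112 and 59.2 CPM in mutants 1 and 2, with no overlap between controls and mutants, and decreased by 1.07 log2 units (SE 0.20, adjusted p = 1.39e-05 by edgeR).

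Scn2b, with 18 to 62 counts per sample, did not pass, and its log2 fold change was 1.27 with SE 0.89 (edgeR adjusted p = 0.561).

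Hyperpolarisation-activated (HCN) channels open at negative potentials and set excitability and rhythmic firing. Hcn2 had 205 and 98.9 CPM in controls 1 and 2 and 116 and 32.9 CPM in mutants 1 and 2. Mutant 1 was above control 2 and below control 1. Hcn2 decreased by 1.20 log2 units (SE 0.21, adjusted p = 7.81e-06 by edgeR).

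Hcn4, the pacemaker channel of the heart, had 39.0 and 29.3 CPM in controls 1 and 2 and 24.4 and 11.7 CPM in mutants 1 and 2, and here both controls lay above both mutants. It decreased by 0.99 log2 units (SE 0.26, adjusted p = 0.00507 by edgeR).

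Of the calcium channel pores, 2 of 7 tested were lower. Cacna1h encodes Cav3.2, a low-threshold T-type channel, and was the highest of these pores at 25.8 CPM per kb. It had 318 and 209.7 CPM in controls 1 and 2 and 217 and 104 CPM in mutants 1 and 2. Mutant 2 was far below the other 3 samples, and mutant 1 was about level with control 2. Cacna1h decreased by 0.78 log2 units (SE 0.22, adjusted p = 0.0124 by edgeR). Cacna1b encodes the N-type channel Cav2.2 of presynaptic terminals, had 75.1 and 79.9 CPM in controls 1 and 2 and 54.2 and 43.8 CPM in mutants 1 and 2 with no overlap between genotypes, and decreased by 0.67 log2 units (SE 0.18, adjusted p = 0.0062 by edgeR).

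The other pores named here were low. Cacna1a, the P/Q-type presynaptic channel, had 13.4 and 5.19 CPM in controls 1 and 2 and 6.98 and 4.81 CPM in mutants 1 and 2 (log2 fold change -0.54, SE 0.47, edgeR adjusted p = 0.678). Cacna1c, the L-type channel of muscle and neurons, had 5.92 and 7.0 CPM in controls 1 and 2 and 6.89 and 3.25 CPM in mutants 1 and 2 (log2 fold change -0.43, SE 0.55, edgeR adjusted p = 0.818). Neither difference passed, and in both genes the samples of the genotypes overlapped.

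The calcium channel auxiliary subunits bring the pore to the membrane. Cacnb3, a cytoplasmic beta subunit, was the most abundant channel gene of all at 85.2 CPM per kb and made up 83.7% to 95.2% of its family's summed level per kb in each sample. It had 441 and 208 CPM in controls 1 and 2 and 278 and 82.1 CPM in mutants 1 and 2. The gap between the controls was wider than that between control 1 and mutant 1, and mutant 2 was lowest. Cacnb3 decreased by 1.0 log2 units (SE 0.24, adjusted p = 0.00243 by edgeR). The other beta subunit named by its level, Cacnb2, had 22.9 and 25.2 CPM in controls 1 and 2 and 18.9 and 12.9 CPM in mutants 1 and 2 and did not pass (log2 fold change -0.62, SE 0.29, edgeR adjusted p = 0.26).

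Cacna2d1, the alpha2delta subunit to which gabapentin binds, was close to the threshold. It had 72.3 and 90.8 CPM in controls 1 and 2 and 58.7 and 50.7 CPM in mutants 1 and 2, with both mutants below both controls. Cacna2d1 decreased by 0.57 log2 units (SE 0.18, adjusted p = 0.0389 by edgeR), and over 7 alternatives that kept experimental group in the model, its adjusted p lay between 0.0415 and 0.117 and was above 0.05 in 4. Cacna2d2 had 24 to 56 counts per sample and did not pass (log2 fold change -0.13, SE 0.89, edgeR adjusted p = 0.981). The tested gamma subunits were Cacng4 (log2 fold change -0.30, SE 0.49, edgeR adjusted p = 0.867) and Cacng7 (log2 fold change -0.91, SE 1.06, edgeR adjusted p = 0.783), both below 10 CPM in every sample.

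Of the voltage-gated potassium pores of the Kv1 to Kv4 groups, 5 of 12 tested genes were lower. Kcnc4 encodes Kv3.4, a fast inactivating channel, and was the highest of them at 43.1 CPM per kb. It had 299.9 and 149.8 CPM in controls 1 and 2 and 149.9 and 32.9 CPM in mutants 1 and 2. Control 2 and mutant 1 were level, and each mutant was well below its own control. Kcnc4 decreased by 1.58 log2 units (SE 0.26, adjusted p = 2.87e-06 by edgeR), with log2 ratios of -1.0 in group 1 and -2.18 in group 2. Over 7 alternatives that kept experimental group in the model, its adjusted p lay between 4.00e-07 and 0.0645 and was above 0.05 in 1 of them, DESeq2.

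Of the 6 tested Kv1 channels, which open near the spike threshold, 3 were lower. Kcna5 (Kv1.5) had 145 and 70.5 CPM in controls 1 and 2 and 85.9 and 31.4 CPM in mutants 1 and 2 and decreased by 0.95 log2 units (SE 0.17, adjusted p = 1.14e-05 by edgeR). Kcna6 (Kv1.6) had 94.1 and 48.5 CPM in controls 1 and 2 and 45.2 and 10.3 CPM in mutants 1 and 2, with mutant 1 just below control 2, and decreased by 1.62 log2 units (SE 0.24, adjusted p = 1.18e-07 by edgeR). For Kcna6, 40.4% of the exon length also lay under Gm26673, and the strand setting of the counting was not stated, so reads of the 2 genes may be mixed.

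Kcna2 (Kv1.2), an axonal channel, was higher in the controls of both groups. It had 101 and 132 CPM in controls 1 and 2 and 76.2 and 68.7 CPM in mutants 1 and 2 and decreased by 0.67 log2 units (SE 0.19, adjusted p = 0.0146 by edgeR). Kcna1 (Kv1.1), which often assembles with Kv1.2, had 6.31 and 7.14 CPM in controls 1 and 2 and 11.4 and 6.23 CPM in mutants 1 and 2 and did not pass (log2 fold change 0.34, SE 0.47, edgeR adjusted p = 0.841).

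Kcnc1 (Kv3.1, log2 fold change 0.20, SE 0.80, edgeR adjusted p = 0.961) and Kcnd2 (Kv4.2, log2 fold change 2.29, SE 0.93, edgeR adjusted p = 0.227) did not pass. Kcnd2 had 3 and 46 counts in controls 1 and 2 and 57 and 57 counts in mutants 1 and 2, the low count being that of control 1.

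Silent Kv subunits form no channel alone and modify other Kv channels. Kcns3 (Kv9.3) had the smallest p of all channel genes. It had 92.1 and 33.4 CPM in controls 1 and 2 and 43.1 and 8.61 CPM in mutants 1 and 2. Control 1 was highest, mutant 2 lowest, and mutant 1 above control 2. Kcns3 decreased by 1.49 log2 units (SE 0.22, adjusted p = 4.47e-08 by edgeR). The other 4 tested silent subunits did not pass, among them Kcnf1 with 7.78 and 14.8 CPM in controls 1 and 2 and 6.89 and 17.5 CPM in mutants 1 and 2 (log2 fold change 0.039, SE 0.37, edgeR adjusted p = 0.988), where the samples of experimental group 2 were the higher ones.

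**Figure D3:**
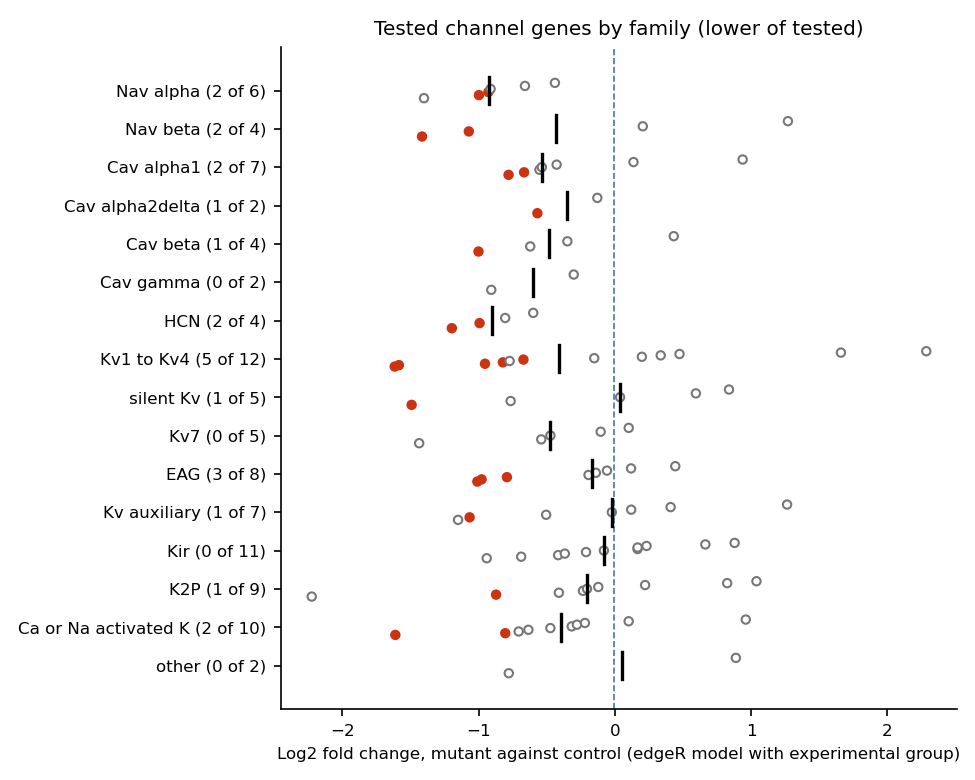
Log2 fold change of mutant against control (edgeR model with genotype and experimental group) for each of the 98 tested channel genes by family, with the family median as a black bar (red, lower at an adjusted p under 0.05; open, not past the threshold). Numbers in parentheses are the genes called lower of those tested, and the dashed line is the median of all tested genes. Kir has 0 of 11 called and K2P 1 of 9, where 4.30% of all tested genes were lower.

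In the EAG family (Kcnh genes), 3 of 8 tested members were lower. Kcnh3, an Elk-type channel of forebrain neurons, had 250.4 and 123 CPM in controls 1 and 2 and 167 and 47.2 CPM in mutants 1 and 2 and decreased by 0.98 log2 units (SE 0.23, adjusted p = 0.00129 by edgeR). Kcnh4, also of the Elk type, had 102 and 90.3 CPM in controls 1 and 2 and 72.8 and 41.8 CPM in mutants 1 and 2, with both mutants below both controls, and decreased by 0.79 log2 units (SE 0.19, adjusted p = 0.00143 by edgeR).

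Kcnh2 encodes ERG1, known for repolarisation of the heart, and was near the threshold. It had 28.4 and 18.5 CPM in controls 1 and 2 and 19.5 and 6.44 CPM in mutants 1 and 2 and decreased by 1.01 log2 units (SE 0.32, adjusted p = 0.04 by edgeR). Over 7 alternatives that kept experimental group in the model, its adjusted p lay between 0.0336 and 0.115 and was above 0.05 in 4.

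The Kv7 family (Kcnq genes) holds the M-type channels and the epithelial channel Kcnq1. Kcnq1 was the highest of them at 9.77 CPM per kb and had 38.3 and 30.6 CPM in controls 1 and 2 and 26.1 and 23.4 CPM in mutants 1 and 2, both mutants below both controls, with an unadjusted 95% interval of -0.91 to -0.038 for the log2 fold change (edgeR adjusted p = 0.248). Kcnq5 had 4.24 and 11.0 CPM in controls 1 and 2 and 5.38 and 7.52 CPM in mutants 1 and 2 and did not pass (log2 fold change -0.10, SE 0.49, edgeR adjusted p = 0.969).

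The long noncoding RNA Kcnq1ot1 is transcribed antisense within Kcnq1, matches the symbol rule without encoding a channel, and shares some exonic bases with it, where reads of both cannot be told apart. It had 478 and 400.0 CPM in controls 1 and 2 and 1951 and 336 CPM in mutants 1 and 2. Mutant 1 stood far above the other 3 samples, and mutant 2 was lowest. The difference between genotypes did not pass (log2 fold change 0.89, SE 0.43, edgeR adjusted p = 0.339). Kcnq1ot1 took 0.203% of the counts of mutant 1 and 0.0334% to 0.0467% of the others. Without it the channel genes took 0.509% and 0.413% of counts in control 1 and control 2, and 0.365% and 0.231% in mutant 1 and mutant 2. Kcnrg, a soluble regulator of Kv channel assembly, was the only other gene outside the channel families (log2 fold change -0.78, SE 0.56, edgeR adjusted p = 0.574).

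Of the auxiliary subunits of Kv channels, 1 of 7 tested was lower. Kcnab2, a cytoplasmic beta subunit of Kv1 channels, was the most abundant channel gene after Cacnb3 and Scn4b, at 51.2 CPM per kb. It had 403 and 152 CPM in controls 1 and 2 and 230.1 and 60.7 CPM in mutants 1 and 2. Mutant 1 was above control 2, and each mutant was below its own control. Kcnab2 decreased by 1.07 log2 units (SE 0.22, adjusted p = 2.57e-04 by edgeR). Kcne3, a small epithelial subunit that opens Kcnq1, had 3.2 and 12.4 CPM in controls 1 and 2 and 3.82 and 12.4 CPM in mutants 1 and 2 (log2 fold change 0.12, SE 0.45, edgeR adjusted p = 0.957), and Kcnip3, a calcium-binding Kv4 subunit, had 5.36 and 4.19 CPM in controls 1 and 2 and 3.51 and 3.19 CPM in mutants 1 and 2 (log2 fold change -0.50, SE 0.61, edgeR adjusted p = 0.792).

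Among channels gated by calcium or sodium, 2 of 10 tested genes were lower, and both encode beta subunits of the large-conductance (BK) channel. Kcnmb3 had 41.7 and 26.4 CPM in controls 1 and 2 and 25.4 and 4.34 CPM in mutants 1 and 2. Mutant 2 was at a low level not seen in the other 3 samples, with log2 ratios of -0.71 in group 1 and -2.58 in group 2. Kcnmb3 decreased by 1.61 log2 units (SE 0.37, adjusted p = 0.0019 by edgeR), and over 7 alternatives that kept experimental group in the model, its adjusted p lay between 0.00159 and 0.063 and was above 0.05 in 1 of them, the quasi-likelihood test.

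Kcnmb2 had 37.5 and 44.8 CPM in controls 1 and 2 and 30.7 and 17.7 CPM in mutants 1 and 2, both mutants below both controls, and decreased by 0.80 log2 units (SE 0.26, adjusted p = 0.0439 by edgeR). It was the closest of the called genes to the threshold, and over 7 alternatives that kept experimental group in the model, its adjusted p lay between 0.0417 and 0.124 and was above 0.05 in 5. Kcnma1, the BK pore itself, had 67.6 and 73.8 CPM in controls 1 and 2 and 49.2 and 65.4 CPM in mutants 1 and 2 and did not pass (log2 fold change -0.32, SE 0.17, edgeR adjusted p = 0.359), with an unadjusted 95% interval of -0.65 to 0.018 for the log2 fold change. Kcnn4, a calcium-activated channel of epithelia and blood cells, had 4.45 and 5.24 CPM in controls 1 and 2 and 7.76 and 3.39 CPM in mutants 1 and 2 (log2 fold change 0.10, SE 0.58, edgeR adjusted p = 0.978), higher in mutant 1 and lower in mutant 2 than the matched control.

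K2P channels, each with a pair of pore loops per subunit, carry background potassium current. Of 9 tested, 1 was lower. Kcnk10 (TREK-2), a channel opened by stretch and lipids, had 67.1 and 50.0 CPM in controls 1 and 2 and 43.2 and 22.9 CPM in mutants 1 and 2, with both mutants below both controls, and decreased by 0.87 log2 units (SE 0.19, adjusted p = 5.24e-04 by edgeR). Its relative Kcnk2 (TREK-1) had 5.45 and 17.8 CPM in controls 1 and 2 and 11.1 and 27.8 CPM in mutants 1 and 2 and did not pass (log2 fold change 0.82, SE 0.32, edgeR adjusted p = 0.122), with each mutant above its own control. Kcnk1, the highest of the family at 25.2 CPM per kb, had 30.2 and 74.3 CPM in controls 1 and 2 and 36.0 and 84.9 CPM in mutants 1 and 2 (log2 fold change 0.22, SE 0.17, edgeR adjusted p = 0.603).

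None of the 11 tested inward rectifiers (Kir, Kcnj genes) was called for genotype, where 4.30% of all tested genes were lower and 1.28% higher. Their median log2 fold change was -0.08. Kcnj5, a subunit of G protein-gated channels, was the highest of the family and had 64.9 and 182 CPM in controls 1 and 2 and 60.4 and 175 CPM in mutants 1 and 2 (log2 fold change -0.08, SE 0.18, edgeR adjusted p = 0.919). Both samples of experimental group 2 were well above both of group 1. The unadjusted 95% interval of its log2 fold change for genotype was -0.43 to 0.27. Kcnj2, the classical strong rectifier Kir2.1, had 108 and 160.0 CPM in controls 1 and 2 and 81.5 and 119 CPM in mutants 1 and 2, each mutant below its own control, and did not pass (log2 fold change -0.42, SE 0.17, edgeR adjusted p = 0.171).

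Summed levels per kb of whole families followed their most abundant genes, and in families such as HCN, where Hcn2 held 77.2% to 88.1% of the sum, 1 gene made up most of it. The log2 ratio of mutant to control of the summed level was -0.78 in group 1 and -1.53 in group 2 for the HCN family. It was -0.79 in group 1 and -1.39 in group 2 for the Kv1 to Kv4 pores and -0.90 in group 1 and -1.10 in group 2 for the sodium channel beta subunits. For the K2P channels it was 0.065 in group 1 and 0.10 in group 2. These sums rest on 1 mutant and 1 control per group and carry no test.

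The 75 tested channel genes that were not called divided more evenly. Of them, 45 had a negative and 30 a positive fold change, with a median of -0.15 on the log2 scale, and both controls lay above both mutants in 17, against 13.3% of all tested genes.

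Channel genes differed between experimental groups too. In the same model, 35 of the 98 tested genes passed for experimental group, 10 higher in group 2, against 17.7% of all tested genes, and 25 lower in group 2, against 14.0% of all tested genes. Treatment, parents, age and sex differed together between the groups, as the design text states, and their parts cannot be told apart. Of the 25 lower genes, 17 were among the 23 called lower for genotype. Both sets of calls came from the same samples, and the like overlap over all tested genes was not counted. In the same direction, 6 of the 7 mature neuron markers were lower in group 2, with a median log2 difference of -1.36.

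Of the 10 genes higher in group 2, 6 were inward rectifiers, and the others were Kcnk1, Kcnk2, Kcne3 and Kcnf1. Kcnj1, Kcnj15, Kcnj16 and Kcnj13, named after their values were seen, were among the 6. Kcnj1 (ROMK, known from the kidney) had 7.91 and 67.8 CPM in controls 1 and 2 and 6.55 and 60.5 CPM in mutants 1 and 2 (log2 difference 3.15, edgeR adjusted p = 1.06e-43). Kcnj15 had 22.0 and 147 CPM in controls 1 and 2 and 32.2 and 129 CPM in mutants 1 and 2 (log2 difference 2.37, edgeR adjusted p = 4.00e-28), and Kcnj5 differed less (log2 difference 1.51, edgeR adjusted p = 2.65e-14).

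Kcnk1 was higher in group 2 as well (log2 difference 1.27, edgeR adjusted p = 1.27e-11). Over all 15 Kir genes the summed level was 57.9 and 149 CPM per kb in controls 1 and 2 and 57.7 and 151 CPM per kb in mutants 1 and 2, so that the groups differed while mutant and control within each group were close. Beside this, all 3 measured markers of sustentacular cells, the supporting cells of the epithelium (Cyp2g1, Ermn and Cyp1a2), were higher in group 2, with a median log2 difference of 1.58 and a summed level of 1452, 3817, 1650.0 and 5508 CPM in controls 1 and 2 and mutants 1 and 2. Single markers of other lists were higher in group 2 as well, among them 3 named after their values were seen. These were Rgs5 of vessels (log2 difference 2.37), Lyz2 of leukocytes (1.78) and Cftr of microvillar cells or ionocytes (1.58). The vessel and leukocyte lists each also had 2 markers lower in group 2. The part of any of these markers in the result was not tested.

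**Figure D4:**
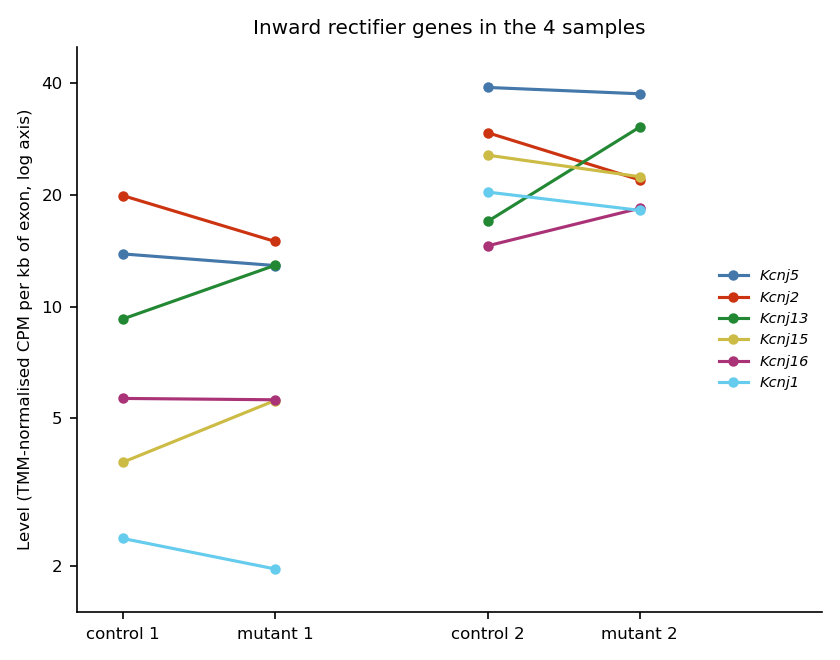
Level of the 6 inward rectifier genes of highest mean level, in TMM-normalised CPM per kb of exon on a log axis, for control and mutant of each experimental group, 1 point per sample. All 6 genes were higher in both samples of group 2 than in both of group 1, and none passed the test for genotype.

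The genotype calls rested on the model term for experimental group. With genotype alone in the model, 0 channel genes were lower or higher by edgeR, and 3 of the 98 had an unadjusted p under 0.05. Within each group, the median log2 ratio of the 98 genes was -0.19 in group 1 and -0.66 in group 2, against -0.03 and 0.00 for all tested genes.

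**Figure D5:**
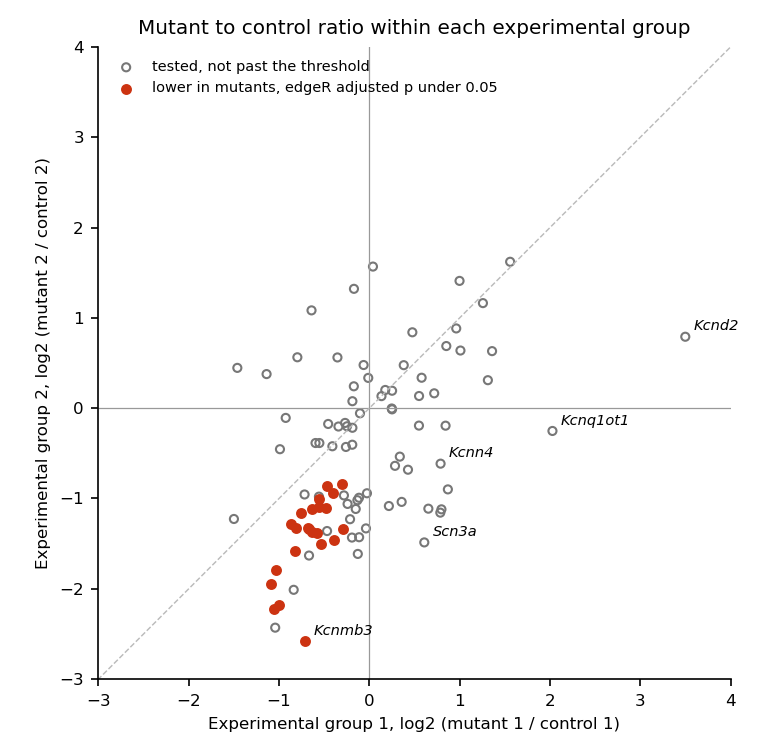
Log2 ratio of mutant to control in experimental group 2 (vertical) against experimental group 1 (horizontal) for the 98 tested channel genes (red, lower at an adjusted p under 0.05; open, not past the threshold), 1 mutant and 1 control per axis. All 23 red points lie below 0 on both axes and below the dashed line of equal ratios. Kcnq1ot1 and Kcnd2 lie far to the right, since they were much higher in mutant 1 than in control 1.

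Markers of other cell types were examined as well. No horizontal basal cell, sustentacular, leukocyte, ensheathing glia or vessel marker passed for genotype. Of the other lists, 2 of 3 ciliated cell markers (Foxj1 and Tekt1) and 1 of 6 microvillar or ionocyte markers (Trpm5) were lower, and 1 of 4 progenitor markers was higher, Kit (log2 fold change 0.98, SE 0.24, edgeR adjusted p = 0.00249). The summed level of the ciliated cell markers was 262, 168, 184 and 85.8 CPM in controls 1 and 2 and mutants 1 and 2. The 4 skeletal muscle markers were each below 2 CPM in every library. The part of these cell types in the channel results was not tested.

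Proteins that anchor or assist these channels were listed as well. Of 30 listed partner genes found in the files, 22 were tested, with a median log2 fold change of -0.13. Among these, 2 were lower, against 4.30% of all tested genes, and 0 were higher, against 1.28%. Fgf12, an intracellular partner of sodium channel pores, had 114 and 102 CPM in controls 1 and 2 and 66.6 and 39.6 CPM in mutants 1 and 2 (log2 fold change -1.06, SE 0.18, edgeR adjusted p = 3.62e-06). Amigo1, a membrane partner of Kv channels, had 74.1 and 51.0 CPM in controls 1 and 2 and 49.4 and 32.0 CPM in mutants 1 and 2 (log2 fold change -0.63, SE 0.17, edgeR adjusted p = 0.00911). The sodium channel anchor Ank3, ankyrin G, did not pass (log2 fold change -0.10, SE 0.21, edgeR adjusted p = 0.904).

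The 41 channel genes that were not tested had few counts. Their counts summed to 332 and 199 in controls 1 and 2 and to 697 and 128 in mutants 1 and 2, and no single value exceeded 92. In mutant 1, 2 of the 41 had no count, against 18 to 21 in the other libraries. Mutant 1 held a median of 3.48 counts per kb of exon over these genes, beside a median of 2.05 counts per kb over 3739 genes that had no count in the other 3 libraries. A background of 2.05 counts per kb would make up at most 2.23% of the mutant 1 counts of any called channel gene, and a median of 6.77% in the tested genes that were not called. With the pooled rate of the same 3739 genes, 3.94 counts per kb, these values were 4.29% and 13.0%.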

How the data were processed

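The authors depleted ribosomal RNA, treated RNA with DNase, removed ribosomal reads with Bowtie2 2.0.6, aligned 50 bp single-end reads to mm10 with TopHat 2.0.7 and counted with HTSeq (intersection-nonempty); annotation and strand setting are not given in the sources used here. The deposited values are raw counts per gene symbol. The 5 tally lines per file entered neither library sizes nor tests, whereas the study's printed code kept them.

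Genes above 1 CPM in at least 2 samples (15438) were fitted with edgeR 4.0.16 (R 4.3.3), with TMM factors and genotype and experimental group as terms, and the genotype and experimental group coefficients were tested by likelihood ratio, after the study's methods. Benjamini-Hochberg adjustment ran over all tested genes, with a threshold of 0.05. SE are Wald errors, and 95% intervals span 1.96 SE either side. Levels are TMM-normalised CPM. Within-group ratios used a prior count of 2 and carry no test. Exon lengths and positions came from GENCODE M21 (GRCm38, the same build), in which all 139 symbols were matched, 1 of them by an older symbol.

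Pairing follows the design text, which gives each experimental group shared parents and handling. Deviations from the genotype means correlated at 0.52 across 15438 genes within groups.

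Alternatives were the quasi-likelihood test, DESeq2 1.42.0, no experimental group term, RLE factors, other filters, thinning to 14833396 counts, background subtraction from mutant 1 (2.05 counts per kb) and leaving out samples. Named genes were every called gene, the 2 highest tested genes of each family per kb, a panel of 25 known channels, and the 3 genes on each side of the threshold. The genes, families, panel and lists were chosen with earlier results of these data known. Muc2 and Dnah5 of the marker lists were not analysed here. Some channel genes that this rule names are not reported here, although they remain in the counts.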

Additional observations from a re-analysis of the deposited data

Results flagged for a closer look

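Some channel genes had ratios of opposite sign in the 2 experimental groups, each beyond its counting error, and these differences were not tested. The log2 ratio of mutant to control in group 2 minus that in group 1 was -2.10 for Scn3a (0.61 in group 1 and -1.49 in group 2), -1.40 for Kcnn4 (0.79 and -0.61) and -2.28 for Kcnq1ot1 (2.03 and -0.25).

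Family medians of opposite sign in the groups, also not tested, differed by -0.83 for the alpha2delta subunits (0.06 in group 1 and -0.76 in group 2), by 0.41 for the silent Kv subunits (-0.17 and 0.24), by -0.63 for the Kv auxiliary subunits (0.25 and -0.39) and by -1.35 for the pair Kcnq1ot1 and Kcnrg (0.73 and -0.62).

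Outside the comparisons, 39.4% of the uniquely aligned reads of mutant 1 lay outside genes, above the 23.8% and 24.9% of the controls. Of the 41 untested channel genes, 9 had no count in either control and at least 3 counts in mutant 1. Among these, Kcna4 had 23, Kcna10 had 19 and Cacng3 had 16 counts in mutant 1, and none of these 3 had a count in mutant 2.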

How the results depend on the processing

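The count of 23 lower channel genes was 18 with the quasi-likelihood test and with DESeq2, 23 with RLE factors and after background subtraction, 19 without a filter, 24 with CPM above 1 in all 4 samples and 21 after thinning, and the count of higher genes was 0 in each. Of the 23, 17 were called under all 7 of these alternatives. DESeq2 gave no adjusted p for 57 of the 98 genes. With no replicate block the pairing is lost, 0 genes were lower and the median log2 fold change was -0.47 (-0.41 with it). With 1 sample left out, the model held genotype alone, which assumes that a lone sample varies like the others. Since genotype alone called 0 channel genes with all 4 samples, these fits cannot show what the omitted sample did to the calls. They also take in the difference between experimental groups. Over these fits and the 2 single-group ratios, the median lay between -0.77 and -0.19. The lowest, -0.77, was without mutant 1, and the highest, -0.19, was experimental group 1 alone.

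Without a filter the median of all genes was 0.14 and that of channel genes -0.15, since 21975 and 137 genes were then counted. Under the other alternatives with the block, the median of all genes lay between -0.0099 and 0.0018. The count of 35 genes that differed between experimental groups was 30 to 37 under 6 alternatives chosen after seeing the data.

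Of the named genes that were not called, 15 changed sign when 1 sample or 1 experimental group was left out, with log2 values of -1.13 to 0.20 for Cacna1a, -1.08 to 0.22 for Cacna1c, -0.68 to 0.43 for Cacna2d2, -0.64 to 0.13 for Cacng4, -0.19 to 0.84 for Kcna1, -0.73 to 1.15 for Kcnc1, -1.01 to 1.38 for Kcne3, -0.68 to 0.69 for Kcnf1, -1.01 to 0.90 for Kcnj5, -0.51 to 1.04 for Kcnk1, -0.046 to 1.87 for Kcnk2, -0.61 to 0.79 for Kcnn4, -0.39 to 2.19 for Kcnq1ot1, -0.76 to 0.65 for Kcnq5 and -1.49 to 0.61 for Scn3a. The fits without 1 sample held no term for experimental group, so their values take in the difference between groups. Some of the 15 kept their sign within both groups, such as Kcnj5 (log2 ratios -0.10 in group 1 and -0.06 in group 2). Others did not, such as Scn3a (0.61 in group 1 and -1.49 in group 2). Thinning turned Kcnf1 to -0.098. No called gene changed sign under these alternatives. With 2 mice per genotype the p-values rest on few degrees of freedom, genes under 20 CPM had wide errors, and the counts do not say which cells carried each transcript.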

Other observations

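Of the partners of channels that the text has not described, none passed the test for genotype. Nrcam, an adhesion molecule of axons, had 154 and 177 CPM in controls 1 and 2 and 258 and 251 CPM in mutants 1 and 2 and was just outside the threshold (log2 fold change 0.63, SE 0.21, edgeR adjusted p = 0.0531), with each mutant above its own control. Ank2, an ankyrin, had 58.0 and 122 CPM in controls 1 and 2 and 50.9 and 64.0 CPM in mutants 1 and 2 and lay just outside it in the other direction (log2 fold change -0.56, SE 0.19, edgeR adjusted p = 0.0689). Both genes were named after their values were seen. Rims1 and Rims2, which place calcium channels at release sites, did not pass (log2 fold change -0.42, SE 0.34, edgeR adjusted p = 0.642 and log2 fold change -0.19, SE 0.19, edgeR adjusted p = 0.742). The sodium leak partners Unc79 (log2 fold change 0.15, SE 0.33, edgeR adjusted p = 0.913) and Unc80 (log2 fold change 0.52, SE 0.49, edgeR adjusted p = 0.703) did not pass.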
